A study of Mus musculus with 6 samples.

Results

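The genes described here are 34 genes of the cartilage programme, as read in the aortic root of klotho-deficient mice beside that of wild type. They were taken by name, from the transcription factors, matrix proteins, secreted proteins and sulfation enzymes that mark chondrocytes. All 34 were measured, on 67 of the 45101 probe sets of an Affymetrix mouse array, among 18193 genes in all. Each gene is given by its probe set of highest mean log2 signal over the 6 arrays, and 14 of the 34 have other probe sets.

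The klotho-deficient mice were homozygous for a mutant klotho allele and the wild-type mice homozygous for the normal one; all carried the strain label C57BL/6J albino. Roots were dissected at 6 to 6.5 weeks and held the valve leaflets, the annulus at their base and part of the ascending aortic wall. Each array carried RNA pooled from 3 mice, with 3 pools of each genotype, so the spread given is between pools and not between single mice. Klotho partners the receptors of FGF23, a bone hormone that lowers blood phosphate, and the comparison asks which root transcripts differ in mice deficient in it.

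Cartilage matrix is built of fibrils of type II collagen with minor collagens on and inside them, filled with the proteoglycan aggrecan bound to hyaluronan. Chondrocytes make it under the transcription factor Sox9, which works with Sox5 and Sox6. In the mouse aortic root, cartilage-like cells can occur in the annulus at the hinge of the leaflets, and valve leaflets themselves express several of these genes.

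The main pattern lay between arrays of one genotype. The collagen genes Col2a1, Col9a1, Col9a3 and Col11a1, aggrecan, Comp and the secreted Prg4, Cnmd and Ucma had high signals in klotho-deficient replicates 2 and 3, while klotho-deficient replicate 1 stood among or below the wild-type arrays for all of these but Prg4. The collagen genes Col10a1 and Col11a2, near background, did not show it. Col9a2, also near background, had the same order of klotho-deficient pools, but only its replicate 3 exceeded every wild-type pool. No cartilage gene passed the test of genotype: limma called 0 of 34 higher and 0 lower at an adjusted p under 0.05, where 0% and 0% of all 18193 genes were called. At an unadjusted p under 0.05, 2 were higher (Cnmd and Prg4, against 3.25% of all genes) and 1 was lower (Mia, against 3.16%). The difference was above 0 for 24 of 34, against 50.4% of all genes, with a median of 0.23 on the log2 scale beside 0.00 over all genes. It was above 1 on that scale for 6 of 34 (Col2a1, Col9a3, Prg4, Cnmd, Col9a1 and Col11a1), against 4.12% of all genes, and below -1 for 0, against 3.11%.

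Of the 34, 27 were above background in at least 1 genotype, meaning that their signal on all 3 of its arrays exceeded 161.8, the highest signal of 27 Bacillus control probe sets that match no mouse transcript. Signals are linear intensities as deposited and are compared only within a probe set. Differences are klotho-deficient minus wild type in log2 signal, with the SE from limma. In pooled tissue, fewer cells of a type and less RNA per cell cannot be told apart.

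Facts of the arrays bear on what follows. Smooth muscle markers (8 of 8), endothelial markers (10 of 10), valve interstitial markers (9 of 10) and cardiomyocyte markers (12 of 12) were above background on all 6 arrays. The targeted gene, Kl, read 138.3, 217.4 and 189.1 in klotho-deficient roots, against 166.7, 184.7 and 202.1 in wild-type roots, near the background in both, so it did not check the labels. Transcripts of 3 Y-linked genes cleared background in klotho-deficient replicate 1, but not in klotho-deficient replicates 2 and 3, and cleared it in every wild-type pool. No wild-type array lacked Y-linked transcripts, so in those 2 klotho-deficient pools genotype and the sex of the mice cannot be told apart. The 3' to 5' signal ratio of the Gapdh controls, a measure of RNA integrity, was 7.18 on wild-type replicate 3 and 3.23 to 4.08 elsewhere.

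**Figure D1:**
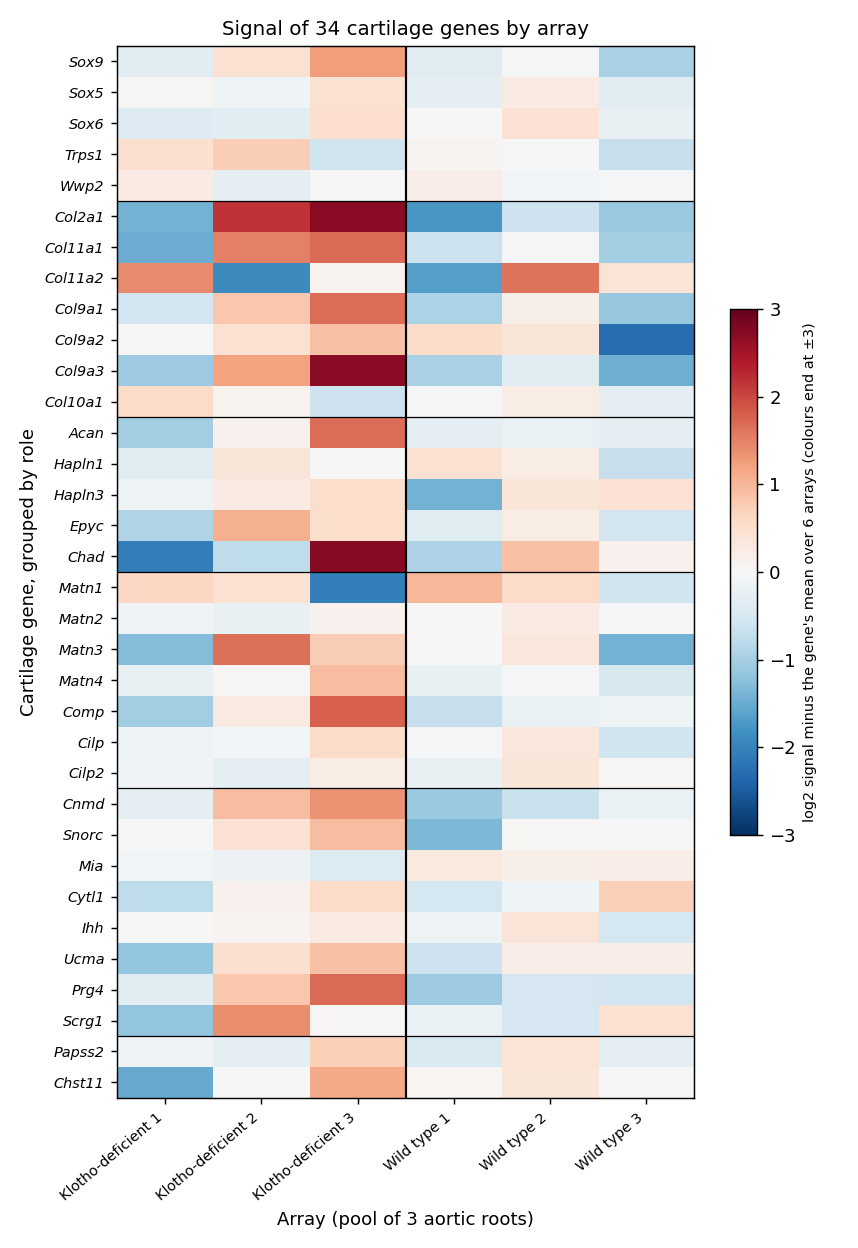
Heat map of the 34 cartilage genes (rows, grouped by role) on the 3 klotho-deficient and 3 wild-type arrays (columns), coloured by log2 signal minus the gene's mean over the 6 arrays. Klotho-deficient replicate 3 was the highest of the 6 arrays for 20 of the 34 genes.

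Array by array, the median of the 34 genes relative to each gene's own 6-array mean was -0.30, 0.26 and 0.65 (log2) on klotho-deficient replicates 1, 2 and 3 and -0.28, 0.20 and -0.29 on wild-type replicates 1, 2 and 3. All genes together stayed between -0.02 and 0.04 on the 6 arrays. Klotho-deficient replicate 3 was highest of all 6 arrays for 20 of the 34 (58.8%, against 20.6% of all genes). Klotho-deficient replicate 1 was the lowest of its genotype for 24 (70.6%, against 33.4%), and replicate 3 the highest of its genotype for 24 (against 37.4%). The highest klotho-deficient array exceeded the lowest by more than 4-fold for 14 of the 34, against 10.6% of all genes, while the wild-type arrays spread that far for 2, against 8.81%. The log2 SD was larger in klotho-deficient roots for 26 of 34 genes (57.3% of all genes).

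Collagen chains spread furthest as a group. Col2a1, which encodes the main fibrillar collagen of cartilage, gave 242.2, 2890.8 and 4225.9 in klotho-deficient replicates 1, 2 and 3, against 193.2, 417.6 and 296.0 in wild type. Klotho-deficient replicate 1 lay inside the wild-type range, and the other 2 klotho-deficient pools lay far above it. The klotho-deficient arrays spanned 17.4-fold and the wild-type arrays 2.16-fold, and the difference of 2.32 ± 1.09 did not pass (limma, adjusted p = 0.78).

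Col11a1, Col9a1 and Col9a3 followed the same order of pools. Col11a1, a chain of the type XI collagen at the core of the fibril, gave 163.3, 1306.1 and 1500.7 in klotho-deficient roots, against 297.6, 448.2 and 227.0 in wild-type roots. Klotho-deficient replicate 1 was the lowest of all 6 arrays here, and the difference was 1.13 ± 0.88. Its second probe set was at or below background on every wild-type array and gave 82.2, 486.1 and 747.1 in klotho-deficient roots, against 103.9, 85.5 and 80.4 in wild type.

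Type IX collagen sits on the fibril surface. Its Col9a1 chain gave 911.1, 2347.2 and 4279.1 in klotho-deficient roots, against 703.1, 1523.4 and 613.0 in wild-type roots (1.27 ± 0.64). The Col9a3 chain gave 195.9, 963.9 and 2712.2 in klotho-deficient roots, against 212.0, 323.6 and 150.8 in wild type (1.88 ± 0.94). For both, replicate 1 overlapped wild type while replicates 2 and 3 exceeded every wild-type array. A second Col9a3 probe set had the same direction, at 235.0, 758.6 and 634.4 in klotho-deficient roots, against 86.3, 256.8 and 187.2 in wild-type roots, and the dimmest was below background on all arrays (-2.50). The adjusted p over all genes was 0.796 for Col9a1 and for Col9a3, and 0.845 for Col11a1.

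The remaining collagen chains were near background. Col9a2 gave 154.8, 210.1 and 280.6 in klotho-deficient roots, against 223.6, 197.9 and 31.6 in wild type (0.90 ± 0.78). Its klotho-deficient pools had the order of Col2a1, but only replicate 3 exceeded every wild-type pool. Col11a2 ran from 21.4 to 216.8 in klotho-deficient roots, against 25.8 to 251.6 in wild-type roots. Col10a1, the collagen of hypertrophic chondrocytes that precede mineralised cartilage, ran from 117.8 to 269.1 in klotho-deficient roots and from 150.6 to 209.3 in wild type. Its highest signal came from klotho-deficient replicate 1 and its lowest from replicate 3, the reverse of Col2a1, and its difference was 0.05 ± 0.34.

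**Figure D2:**
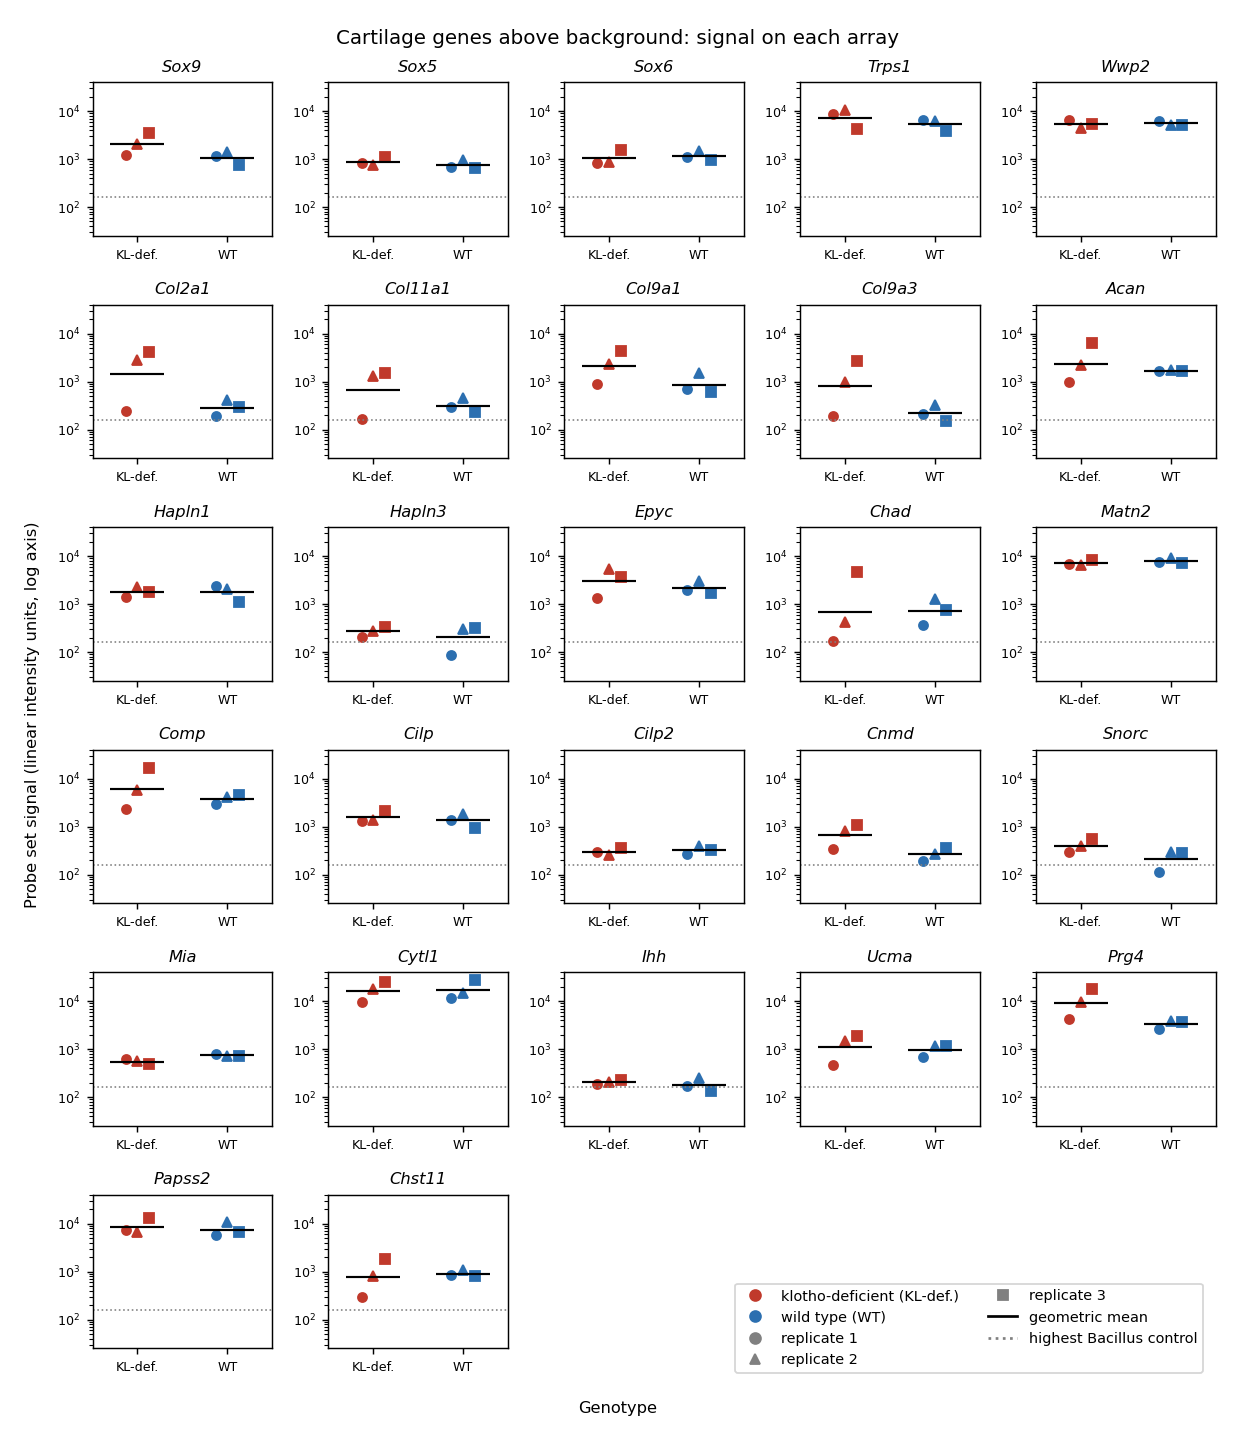
Signal (linear intensity, log axis) of the 27 cartilage genes above background in a genotype, with klotho-deficient arrays in red and wild-type arrays in blue, a symbol for each replicate, a bar at the geometric mean and a dotted line at the highest Bacillus control, 161.8. Prg4 and Mia are the 2 genes whose genotypes did not overlap.

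The proteoglycan aggrecan and its partners split. Acan, which encodes aggrecan, gave 966.2, 2189.3 and 6412.6 in klotho-deficient roots, against 1656.4, 1758.0 and 1649.5 in wild-type roots. The wild-type pools agreed within 1.07-fold while the klotho-deficient pools spanned 6.64-fold, from below to above the wild-type level, and the difference was 0.50 ± 0.66. Chad, chondroadherin, a leucine-rich protein that binds collagen and chondrocytes, had the widest klotho-deficient span of the 34 genes, 27.9-fold, with 166.3, 414.3 and 4638.8 in klotho-deficient roots, against 366.0, 1285.3 and 761.3 in wild type. Its klotho-deficient replicates 1 and 3 were the lowest and the highest of the 6 arrays, and the difference was -0.05 ± 1.25.

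Epyc, epiphycan, a small proteoglycan of growth cartilage, was highest in klotho-deficient replicate 2, with 1363.8, 5386.4 and 3693.0 in klotho-deficient roots, against 1977.2, 3006.2 and 1727.3 in wild-type roots (0.47 ± 0.54). The link proteins, which lock aggrecan-type proteoglycans to hyaluronan, had narrower klotho-deficient spans, 1.66-fold for Hapln1 and 1.61-fold for Hapln3. Hapln1 gave 1377.5, 2285.1 and 1782.0 in klotho-deficient roots, against 2412.1, 2049.0 and 1085.3 in wild type, with a difference of 0.02 ± 0.37 and other probe sets between -0.07 and 0.31. Hapln3 gave 211.0, 279.2 and 339.1 in klotho-deficient roots, against 87.1, 301.0 and 314.4 in wild-type roots (0.43 ± 0.54), its lowest array being wild-type replicate 1.

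Promoter sequences of 3 of these genes are shown as examples of a window with Sox cores, one with a TATA box and one with neither. The windows come from RefSeq on build GRCm38.p6, run 5′ to 3′ on the gene's strand from 250 bases before to 50 bases after the transcript start, and lie at chr11:94564797-94565096 for Chad, chr10:97646853-97647152 for the second annotated start of Epyc and chr3:114030290-114030589 for Col11a1, all on the plus strand. Capitals mark the letters ACAAAG, or the variant ACAATG, as the core that Sox proteins recognise, and TATAAA, the TATA box, searched on both strands.
Chad: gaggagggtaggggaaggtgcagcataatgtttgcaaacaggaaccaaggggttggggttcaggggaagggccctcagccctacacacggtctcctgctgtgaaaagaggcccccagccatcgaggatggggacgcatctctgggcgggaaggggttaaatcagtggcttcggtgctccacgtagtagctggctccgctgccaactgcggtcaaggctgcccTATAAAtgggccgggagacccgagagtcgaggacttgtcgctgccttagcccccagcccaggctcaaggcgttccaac
Epyc: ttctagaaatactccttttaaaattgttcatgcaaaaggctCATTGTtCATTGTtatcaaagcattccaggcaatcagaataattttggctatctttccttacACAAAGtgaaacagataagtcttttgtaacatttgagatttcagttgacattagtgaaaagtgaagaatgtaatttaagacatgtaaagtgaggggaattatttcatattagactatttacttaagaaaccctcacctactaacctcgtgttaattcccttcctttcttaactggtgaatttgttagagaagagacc
Col11a1: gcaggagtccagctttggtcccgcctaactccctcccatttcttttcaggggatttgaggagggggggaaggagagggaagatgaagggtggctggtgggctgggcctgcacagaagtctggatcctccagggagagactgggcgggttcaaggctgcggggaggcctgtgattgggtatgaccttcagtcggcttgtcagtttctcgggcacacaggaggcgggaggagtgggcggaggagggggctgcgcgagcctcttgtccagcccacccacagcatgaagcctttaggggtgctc
The Epyc window held 3 Sox cores, the Chad window a TATAAA starting 28 bases before the transcript start, and the Col11a1 window neither. Windows were found for 25 of the 34 genes, 34 windows in all, of which 9 held a Sox core, against 28.6% of all 32851 windows, and 7 held TATAAA, against 13.6%. The 9 belonged to 4 of the 25 genes (Sox6, Epyc, Sox5 and Col10a1), against 31.7% of all genes with a window. A match is a description of letters and not of a bound site.

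Among the transcription factors, Sox9 at its probe set of highest mean signal followed Col2a1, Col11a1, Col9a1 and Col9a3 with a smaller span, 2.98-fold. Sox9, the main chondrogenic factor, gave 1195.3, 2047.0 and 3565.0 in klotho-deficient roots, against 1169.6, 1424.3 and 755.3 in wild-type roots. Replicate 1 fell inside the wild-type range and the difference was 0.93 ± 0.46 (adjusted p = 0.794). A second Sox9 probe set gave 347.5, 820.0 and 3101.1 in klotho-deficient roots, against 652.7, 1074.2 and 406.9 in wild type. Only replicate 3 exceeded wild type there, and the klotho-deficient pools spread further than at the first probe set. The dimmest probe set, near background, gave a difference of -0.11.

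Differences were small for the Sox9 partners. Sox5 gave 841.7, 752.8 and 1114.8 in klotho-deficient roots, against 671.3, 967.0 and 656.8 in wild-type roots (0.24 ± 0.25), with other probe sets from -0.31 to 1.72. The probe set at 1.72 gave 277.8, 311.4 and 193.9 in klotho-deficient roots, against 293.8, 221.5 and 7.2 in wild type. Its size rests on wild-type replicate 3, the only array below background there. Sox6 gave 839.2, 879.9 and 1570.4 in klotho-deficient roots, against 1113.2, 1485.1 and 951.0 in wild type (-0.15 ± 0.32), and 1 of its other probe sets had the opposite sign (0.21). For both genes the genotypes overlapped.

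At their probe sets of highest mean signal, Trps1 and Wwp2 did not follow the collagens. Trps1, a zinc finger repressor active in growth plate chondrocytes, gave 8714.9, 10376.5 and 4168.4 in klotho-deficient roots, against 6671.3, 6224.8 and 3859.1 in wild type (0.41 ± 0.41). Here replicate 3 was the lowest klotho-deficient pool, the opposite of Sox9, although the other 3 Trps1 probe sets did not have it lowest. Wwp2 is a ubiquitin ligase whose transcript hosts a cartilage microRNA. Its signals were 6489.7, 4547.1 and 5410.4 in klotho-deficient roots, against 6284.9, 5182.8 and 5249.5 in wild-type roots (-0.03 ± 0.21). Its other probe sets differed by -0.73 to -0.005. That at -0.72 gave 2694.6, 1836.7 and 801.1 in klotho-deficient roots, against 2966.3, 2434.0 and 2445.4 in wild type.

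Comp had its klotho-deficient pools in the order seen for Col2a1, over a span of 7.17-fold. Cilp had the same order over 1.62-fold. Comp, a thrombospondin-family protein that bridges collagen fibrils in cartilage and tendon, gave 2358.2, 5908.9 and 16900.9 in klotho-deficient roots, against 3033.7, 4233.2 and 4487.4 in wild-type roots. Replicate 1 was below all wild-type pools and replicates 2 and 3 above them, and the difference was 0.68 ± 0.70. Cilp, a protein of the middle layer of articular cartilage, gave 1315.2, 1370.0 and 2126.7 in klotho-deficient roots, against 1395.2, 1840.3 and 953.1 in wild type (0.22 ± 0.32). Its relative Cilp2 gave 290.1, 253.9 and 366.6 in klotho-deficient roots, against 268.5, 401.6 and 321.1 in wild-type roots (-0.12 ± 0.24), and the genotypes overlapped for both.

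Matrilins link collagens to other matrix proteins. Matn2, the member found widely outside cartilage, was even across arrays, with 7009.2, 6479.3 and 8306.1 in klotho-deficient roots, against 7496.5, 8966.7 and 7303.1 in wild type (-0.13 ± 0.19). Matn1, the matrilin most restricted to cartilage, was at or near background, from 20.2 to 128.5 in klotho-deficient roots, against 55.2 to 166.1 in wild-type roots. Matn3 exceeded background on 1 array, klotho-deficient replicate 2 at 304.6, its wild-type signals being 36.1 to 123.3. Matn4 ran from 29.6 to 65.7 in klotho-deficient roots and from 24.8 to 32.8 in wild type, all below background.

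Secreted and surface proteins held the genes of smallest p. Prg4, which encodes the lubricant lubricin of joint surfaces, gave 4318.8, 9677.2 and 17730.8 in klotho-deficient roots, against 2597.6, 3880.7 and 3666.2 in wild-type roots. It was the 1 gene of 34 with every klotho-deficient pool above every wild-type pool, as were 6.63% of all genes, and the difference was 1.44 ± 0.52 (adjusted p = 0.753). Cnmd, chondromodulin, an inhibitor of vessel growth made by cartilage and heart valves, gave 345.8, 792.6 and 1061.1 in klotho-deficient roots, against 193.9, 262.4 and 366.0 in wild type. Only klotho-deficient replicate 1 overlapped wild type, by falling below wild-type replicate 3, and the difference was 1.32 ± 0.47 (adjusted p = 0.753).

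In the other direction stood Mia, a small secreted protein of chondrocytes and melanoma cells. Its signals were 609.5, 566.1 and 482.8 in klotho-deficient roots, against 789.4, 727.6 and 733.2 in wild-type roots, with every klotho-deficient pool below every wild-type pool, as for 6.84% of all genes (-0.45 ± 0.18, adjusted p = 0.77). Replicate 3, which was highest for Col2a1, Acan and Comp, was the lowest for Mia.

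Snorc, a transmembrane proteoglycan of chondrocytes, gave 289.4, 397.9 and 560.3 in klotho-deficient roots, against 114.6, 302.5 and 285.5 in wild type (0.90 ± 0.46). Ucma, a vitamin K-dependent protein of cartilage that binds calcium, gave 466.0, 1455.7 and 1917.2 in klotho-deficient roots, against 672.9, 1183.8 and 1189.7 in wild-type roots (0.15 ± 0.57). As with Acan and Comp, its replicate 1 was below every wild-type pool and replicates 2 and 3 above. Cytl1, a secreted cytokine-like protein, was high in both genotypes relative to background, at 9858.6, 18127.6 and 24814.0 in klotho-deficient roots, against 11608.2, 15141.9 and 27556.2 in wild type (-0.04 ± 0.46).

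Ihh, the hedgehog signal of maturing chondrocytes, was near background, with 191.4, 203.9 and 229.3 in klotho-deficient roots, against 172.7, 250.3 and 132.9 in wild-type roots (0.21 ± 0.27), and the klotho-deficient pools lay inside the wild-type range. Scrg1, a secreted protein found in cartilage and brain, ran from 69.0 to 410.4 in klotho-deficient roots and from 109.7 to 216.0 in wild type.

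The sulfation enzymes act on the chondroitin chains of aggrecan. Papss2, which makes the sulfate donor, gave 7506.6, 6707.2 and 13391.1 in klotho-deficient roots, against 5936.6, 10783.9 and 6589.0 in wild-type roots (0.23 ± 0.36). Chst11, a chondroitin sulfotransferase, gave 293.0, 821.4 and 1824.1 in klotho-deficient roots, against 869.3, 1074.3 and 807.9 in wild type (-0.26 ± 0.64), the klotho-deficient pools again lying below, among and above the wild-type pools. Its other probe set had the opposite sign (0.72), with 260.8, 787.9 and 1331.6 in klotho-deficient roots, against 295.7, 448.6 and 462.3 in wild-type roots.

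How far the klotho-deficient pools stood from wild type depended on klotho-deficient replicate 1, the only klotho-deficient pool in which Y-linked transcripts cleared background. Every wild-type pool had them, so without replicate 1 genotype and the sex of the mice cannot be told apart. Without replicate 1, 14 of 34 genes had both remaining klotho-deficient pools above all wild-type pools, against 11.9% of all genes. Another 1 had both below, against 9.91%. The difference was then above 0 for 27 of 34 (52.1% of all genes), with a median of 0.67 beside 0.02 over all genes, and 9 were higher at an unadjusted p under 0.05 (3.36% of all genes) and 0 lower (2.62%). Col2a1 then differed by 3.60 ± 0.40, Col9a3 by 2.89 ± 0.56, Col11a1 by 2.17 ± 0.35 and Prg4 by 1.98 ± 0.36. Limma called 0 of the 34 even so, against 0.0055% of all genes, the smallest adjusted p being 0.25 for Col2a1.

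With a covariate for Y-linked transcripts, the genotype difference becomes klotho-deficient replicate 1 minus the wild-type mean. That arm is 1 array, so its SE and p take the spread from the other arrays and assume that it varies as they do. It was above 0 for 16 of 34 genes (48.2% of all genes), with a median of -0.09 beside -0.02 over all genes. Col2a1 was then -0.25 ± 0.51, Col11a1 -0.93 ± 0.44, Acan -0.80 ± 0.61, Comp -0.71 ± 0.64 and Chad -2.09 ± 1.43, while Prg4 (0.37 ± 0.46), Cnmd (0.38 ± 0.44), Snorc (0.43 ± 0.64) and Sox9 (0.15 ± 0.51) kept a positive sign and Mia a negative one (-0.30 ± 0.27). At an unadjusted p under 0.05, 0 were higher (1.92% of all genes) and 1, Chst11, was lower (3.48%).

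**Figure D3:**
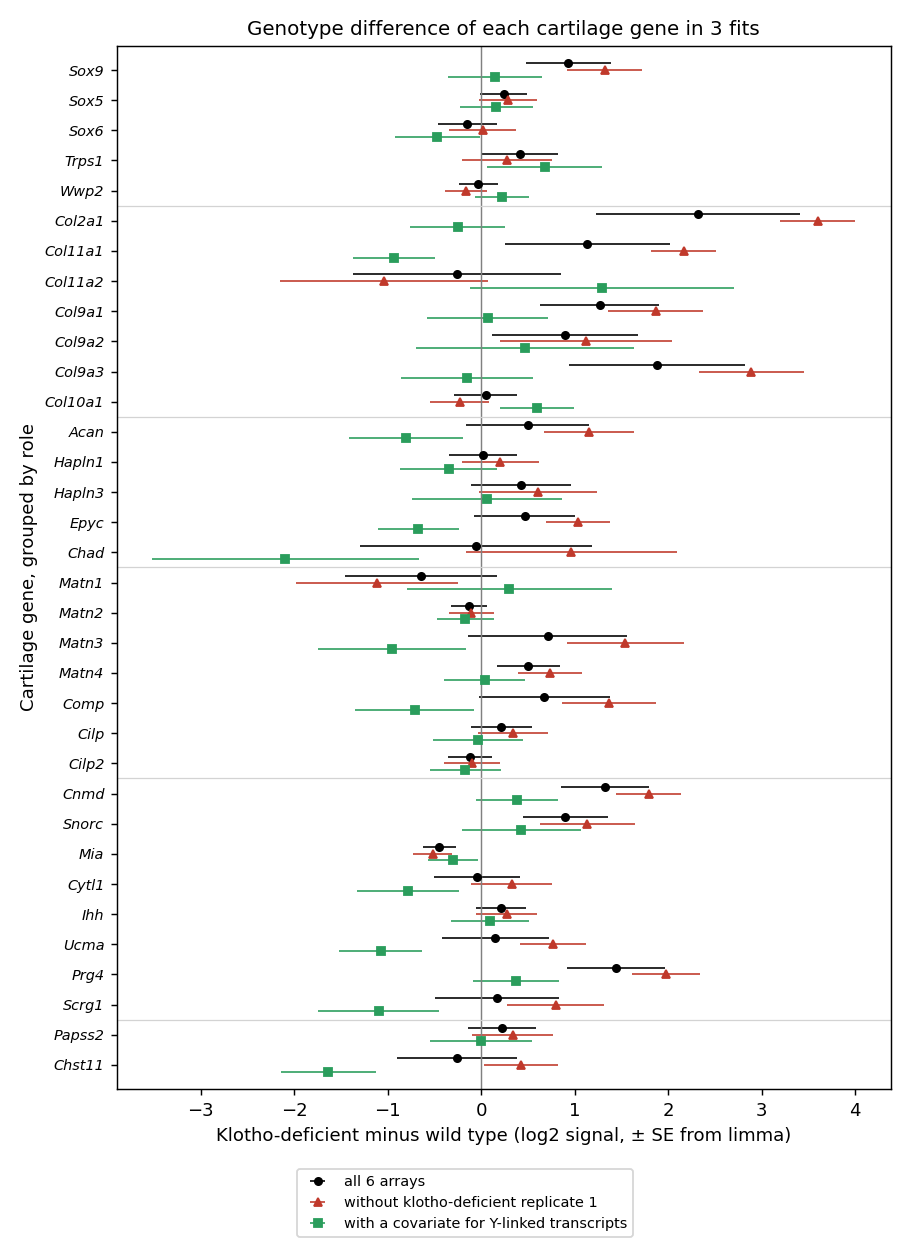
Klotho-deficient minus wild type in log2 signal (± SE from limma) for each cartilage gene with all 6 arrays (black), without klotho-deficient replicate 1 (red) and with a covariate for Y-linked transcripts (green). Col2a1 runs from -0.25 with the covariate to 3.60 without that replicate.

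Other genes of the cartilage pathway, taken from lists apart from the 34, had median differences from -0.18 to 0.20. Limma called 0 genes of any of these lists at an adjusted p under 0.05. Of 17 measured genes of chondroitin sulfate synthesis, 7 were higher and 10 lower (median -0.18). Those of smallest p were all lower: Chst3, a chondroitin sulfotransferase, averaged 161 ± 29.2 in klotho-deficient roots, against 265 ± 39.2 in wild-type roots (SD, n = 3 pools each), with a difference of -0.72 ± 0.22. B4galt7, which builds the linker of the chain, and Csgalnact1, which starts the chain, differed by -0.60 ± 0.27 and -0.71 ± 0.37, and Xylt2 was below background on all arrays.

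Among 18 measured regulators of chondrocytes, 10 were higher and 8 lower (median 0.03). Itga10, the collagen-binding integrin chain of chondrocytes, averaged 1256 ± 115 in klotho-deficient roots, against 696 ± 144 in wild-type roots. All 3 klotho-deficient pools, replicate 1 included at 1246.4, exceeded the wild-type pools (0.87 ± 0.21, adjusted p = 0.67). Gdf5 and Barx2 were below background throughout, and Foxa3 ran from 71.3 to 164.0 in klotho-deficient roots and from 38.6 to 76.5 in wild type.

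Of 9 measured genes of matrix breakdown, 5 were higher and 4 lower (median 0.20). Adamts1, a protease that cuts proteoglycans, averaged 26757 ± 4661 in klotho-deficient roots, against 18165 ± 2647 in wild-type roots (0.55 ± 0.22). Hyal2, a hyaluronidase, averaged 334 ± 56.7 in klotho-deficient roots, against 685 ± 269 in wild-type roots (-0.98 ± 0.32). Htra1, a serine protease, differed by -0.48 ± 0.19 and Mmp13, the collagenase of hypertrophic cartilage, by 0.44 ± 0.22. Of 18 measured genes of other cartilage matrix, 7 were higher and 11 lower (median -0.04), with Col14a1 at -0.40 ± 0.19, Thbs3 at 0.30 ± 0.17, Fbln1 at -0.28 ± 0.19 and Chadl at -0.29 ± 0.21.

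Markers of tissue that a root dissection could carry varied between arrays, and their part in the cartilage signals was not tested. Summed signals of 10 tendon and ligament markers, of which Comp and Cilp are also cartilage genes, were 47804.1, 50136.1 and 80445.5 in klotho-deficient roots, against 54114.5, 52215.1 and 53570.4 in wild-type roots. Without Comp and Cilp the sums were 44130.7, 42857.2 and 61417.9 in klotho-deficient roots, against 49685.6, 46141.6 and 48129.9 in wild type. Klotho-deficient replicate 3, the pool with the highest cartilage signals, was highest in both sums. It was highest for 5 of the 10 genes, Comp and Cilp among them, against 20.6% of all genes. Without Comp and Cilp it was highest for 3 of 8: Thbs4 at 2688.2, Fmod at 19447.8 and Egr1 at 18237.6. Scx and Tnmd, a transcription factor and a membrane protein that define tendon cells, peaked in wild-type pools, at 544.0 and 302.7. So did Kera, a small proteoglycan, at 460.4, and Col1a1 at 22000.7, while Mkx was below background throughout. Klotho-deficient replicate 1 was the lowest array for Comp, Thbs4 (384.2), Fmod (11341.8), Tnmd (56.5) and Kera (15.8). It was not the lowest for Cilp, Scx, Egr1, Col1a1 or Mkx.

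Airway epithelium was included because airway walls hold cartilage. Its 10 markers summed to 3624.6, 3692.1 and 1450.1 in klotho-deficient roots, against 1716.2, 12891.6 and 3261.2 in wild-type roots, and 4 of the 10 were at or below background on all arrays. The sum was lowest in klotho-deficient replicate 3 and highest in wild-type replicate 2. There Scgb1a1, a secretory airway protein, gave 8330.6 of the 12891.6. Whether any root carried airway cartilage was not tested. Bone markers summed to 19453.7 to 25802.8 over klotho-deficient pools and to 19448.5 to 28330.4 over wild-type pools, 8 of 10 being measured and 1, Mepe, below background throughout. Col1a1, also a tendon and ligament marker here, made up 15661.3 to 21865.4 of the klotho-deficient sums and 14848.0 to 22000.7 of the wild-type sums. Of the 8, 4 were higher and 4 lower. Sost gave 2350.8, 1442.8 and 2554.6 in klotho-deficient roots, against 3956.7, 4615.2 and 3094.6 in wild type (-0.90 ± 0.29, limma adjusted p = 0.72). It was the 1 bone marker whose genotypes did not overlap, every klotho-deficient pool being lower, as for 6.84% of all genes.

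Skeletal muscle markers summed to 1877.2, 2859.3 and 2263.3 in klotho-deficient roots, against 1359.5, 1273.5 and 2108.1 in wild-type roots. Of the 10, 9 were higher, against 50.4% of all genes. Only 2 of the 10 were above background on all 6 arrays, and another 2 were below it on all. Cardiomyocyte markers summed to 82317.7, 131738.1 and 94612.2 in klotho-deficient roots, against 76695.7, 118831.8 and 114937.6 in wild type, so replicate 1 was lowest in both genotypes, with 5 of 12 higher. Adipocyte markers, 6 of 8 measured, were lowest in klotho-deficient replicate 3 at 21550.2, against 31130.6 to 38598.3 in wild-type roots.

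Endothelial markers were lower in klotho-deficient roots for 9 of 10 genes (median -0.39), with summed signals of 38000.2, 33504.1 and 41995.2 in klotho-deficient roots, against 37555.0, 40178.0 and 72181.7 in wild-type roots. The highest sum came from wild-type replicate 3, the array with the highest Gapdh ratio. Thymus and T cell markers were lower for 8 of 9 measured genes (median -0.63), none of them above background on all arrays. Smooth muscle markers were higher for 6 of 8 genes (median 0.11).

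**Figure D4:**
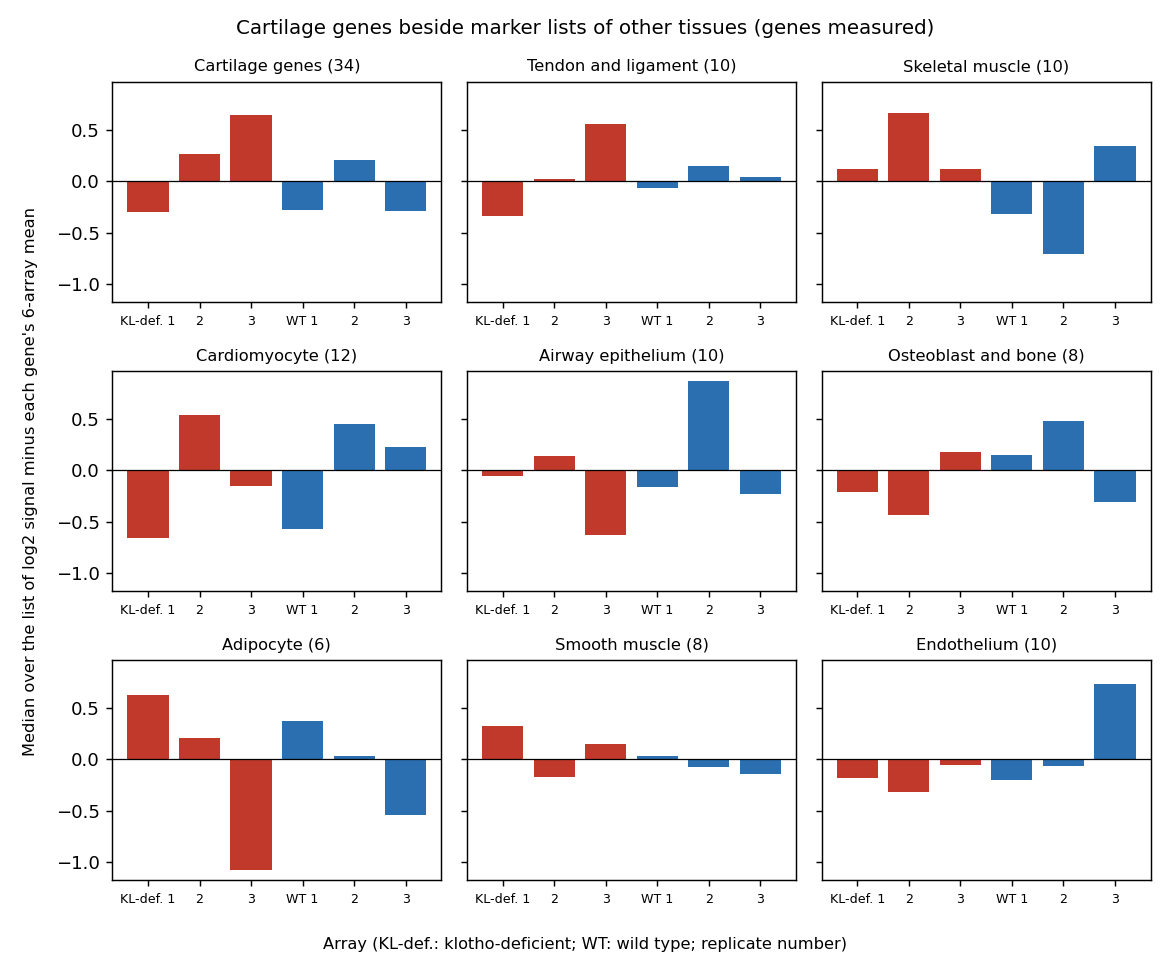
Median over each gene list of log2 signal minus the gene's 6-array mean, for the cartilage genes and 8 marker lists, on klotho-deficient (red) and wild-type (blue) arrays. For cartilage genes the bars are -0.30, 0.26 and 0.65 on the klotho-deficient arrays, and the tendon and ligament median, over a list that includes Comp and Cilp, is 0.56 on klotho-deficient replicate 3.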

How the data were processed

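Aortic root RNA was extracted with Trizol, amplified and biotin-labelled with NuGEN kits, per the labels' protocols. The deposited values are linear array intensities, 1 per probe set; the submitters' processing notes name RMA with no version. With the outer 2% of values trimmed off both ends, each array averaged 1500.01, so a common scaling had been applied. Medians still ran from 425.6 to 556.6, and the lowest value was 0.1. No source used here says whether RMA alone gave such values or which other steps were taken.

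Values were log2-transformed with no pseudocount. Of the probe sets, 34945 carry 1 gene symbol in the platform annotation. All adjusted p-values come from limma 3.58.1 (R 4.3.3), by a two-sided moderated test of genotype with Benjamini-Hochberg adjustment. The fit as reported had 4 residual and 2.1 prior degrees of freedom and was adjusted over 18193 genes. Fits under other settings had their own degrees of freedom, and that with the filter on dim genes was adjusted over 13322 genes. The procedure was tested on simulated data. Precision is limited by the number of arrays. The labels share replicate numbers 1 to 3. Deviations of same-numbered pools correlated at 0.165, -0.01 and 0.161 across genes, and those of pools with unlike numbers at -0.199 to 0.072. Same-numbered pools 1 and 3 thus stood above all other pairs, and the correlations do not settle whether pools were paired. No pairing was used in the fit as reported, and a replicate block is among the other settings below. Members and lists were chosen with earlier results of these data known. Every member is reported: those above background in a genotype with all values, the others with their range. Pathway lists are given with their 4 genes of smallest p, and cell type lists by their summed signals and counts. Figures used matplotlib 3.10.9.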

Additional observations from a re-analysis of the deposited data

How the results depend on the processing

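Results were recomputed under 16 other settings: quantile normalization, centring on array medians, a replicate block, a filter on dim genes, an offset of 100, averaged or middle probe sets, a trended and robust prior, array weights, a Y-linked covariate and each array left out. None of the 34 genes was called in any of them. In the fit as reported, 3 passed an unadjusted p under 0.05, 2 higher and 1 lower, against 3.25% and 3.16% of all genes. Over all genes, the count of calls was 0 in the fit as reported and 1 with the dim filter, 1 with the offset, 2 with the trended prior and 1 with array weights, and 0 to 1 with single arrays left out. The number of cartilage genes with a positive difference was 24; leaving out single arrays gave 20 to 27, array weights 19 and the Y-linked covariate 16. Their median difference of 0.23 turned to -0.094 with the covariate and was 0.15 to 0.67 with single arrays left out, the highest without klotho-deficient replicate 1. Genes whose genotypes did not overlap numbered 2, 1 above and 1 below, against 6.63% and 6.84% of all genes. With an array left out they numbered 2 to 15. Without klotho-deficient replicate 1 there were 15, 14 above and 1 below, against 11.9% and 9.91% of all genes. Leaving out klotho-deficient replicate 3 gave 5 and wild-type replicate 2 gave 9. For these the share over all genes is not given here, so neither count can be set against it. The count without overlap has no separate value under the block, the trended prior, array weights or the covariate, which leave the signals as they are. A replicate block leaves each difference as it is by construction (24 positive, median 0.23). It gave 0 adjusted calls. At an unadjusted p under 0.05 it gave 4 higher and 0 lower, against 2 and 1 without it, so Mia no longer passed that threshold. Under the block the share over all genes is not given here, so these counts cannot be set against it.

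Signs were stable in 10 of the 34 genes over the settings in which each was tested: Cnmd, Prg4, Col9a1, Sox9, Sox5, Snorc, Trps1 and Matn4 stayed positive, and Mia and Matn2 negative. The other 24 turned in at least 1 setting. Of 538 values, 60 had the other sign, 14 of them with the Y-linked covariate and 9 with array weights. The cause of these changes was not tested. Genes near 161.8 are limited by background, and 7 of the 34 did not clear it throughout either genotype.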

Other observations

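Markers of the synovial lining, the tissue that makes lubricin in joints, were all above background, with 5 of 8 higher and 3 lower (median 0.05). The 8 genes summed to 21362.1, 26323.7 and 39108.5 in klotho-deficient roots, against 17583.7, 20588.2 and 18989.2 in wild-type roots. Without Prg4, which is one of the cartilage genes, the sums were 17043.3, 16646.5 and 21377.7 in klotho-deficient roots, against 14986.1, 16707.5 and 15323.0 in wild-type roots, and the genotypes overlapped. Htra4, a serine protease named after its values were seen, gave 1965.0, 3068.1 and 5188.3 in klotho-deficient roots, against 1096.0, 1515.6 and 1803.0 in wild type (1.13 ± 0.40, limma adjusted p = 0.753). Of the others, Creb5 differed by 0.32, Sema5a by 0.09 and Hbegf by 0.01, while Has1 differed by -0.15, Clic5 by -0.19 and Tspan15 by -0.60.

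Valve interstitial markers were higher for 8 of 10 genes (median 0.09) and summed to 177103.2, 164689.7 and 160597.2 in klotho-deficient roots, against 164182.1, 154371.7 and 152325.2 in wild-type roots. A probe set that the annotation gives to both Phactr1 and Chst11 was not used; it measured 1144.6, 871.4 and 1433.1 in klotho-deficient roots, against 1001.7, 1015.3 and 863.5 in wild-type roots.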
